A study of Mus musculus with 12 samples.

Results

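The genes of the acute phase response and of interleukin 6 (IL-6) signalling were followed as a set of 35 mouse genes, selected by gene symbol. All 35 were among the 12086 genes of a liver RNA-seq table, and none of them was listed at 0 in any library. The set holds 26 genes for secreted proteins, of which 23 were listed as acute phase proteins that rise, including Saa4, which is known as a largely constitutive one. The other 9 genes encode receptors and surface proteins (5 genes) or signalling and transcription factors (4 genes).

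The livers came from wild type male C57BL/6 mice that were fasted and killed at 12 weeks of age. In group names the first letter is the diet of the dam and the second that of her offspring (O for obesogenic, C for control). In OO mice both dam and offspring ate the obesogenic diet, which had 10% simple carbohydrate and 20% lipid and came with sweetened condensed milk (55% simple carbohydrate, 8% lipid, 8% protein). In CO mice only the offspring ate it, in OC mice only the dam ate it, and CC mice and their dams ate a chow with 7% simple carbohydrate and 3% lipid. Dams kept their diet until weaning at day 21, litters were set to 6 pups, and offspring ate their own diet after weaning. Of 12 labelled animals, 3 per group, the table held 11 libraries, with 3 for OO, 2 for CO, 3 for OC and 3 for CC. The number after the point in a library's name (OO.0, CO.1) pairs nothing. Each library was made from whole liver tissue, so fewer cells of a type and less RNA per cell cannot be told apart.

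The acute phase response is the change in the proteins that hepatocytes secrete when infection, injury or inflammation raises cytokines in the blood. IL-6 binds its receptor Il6ra, pairs it with the signalling subunit gp130 (Il6st) and activates STAT3 through Janus kinases, while interleukin 1 acts through Il1r1 and NF-kB, and the C/EBP factors Cebpb and Cebpd add to the transcription of many targets. STAT3 also induces Socs3, which blocks the receptor complex and so limits the signal. Serum amyloid A (Saa) proteins are among the most inducible products in the mouse, and the pentraxin Apcs responds more than Crp in this species.

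Values are read counts scaled to 1 factor per library, close to CPM. Depth recovered from the values was 3976158 to 27837609 reads per library, so that 3 reads were worth 0.1 to 0.829. The lowest value of any member was 1.27, for Il1rn in CC.0, where 3 reads were worth 0.476. The hepatocyte markers measured (8 of 10 listed, with Ttr of the set among them) summed to 63580 to 74070 in every library. Single markers moved in opposite directions within that sum. Cps1 was 2745 to 4754 in OO and 8392 to 12530 in CC, and Fabp1 was 4476 to 5896 in OO and 1610 to 3704 in CC. For the offspring diet averaged over dams, limma called 1 of the 8, where 3.96% of all genes were called. CO.1 and OC.1 stood apart from the rest in the acute phase genes. CO.1, OC.0 and CC.1 stood apart in 15 transcripts of the exocrine pancreas, which summed to 4348, 6842 and 1023 against 7.6 to 143 in the other 8 libraries.

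Promoters of 26 of the 35 genes were in the RefSeq promoter table (GRCm38.p6, 250 bases before to 50 after the start site). Hp, Orm1, Serpina3m, Lbp, Fgl1, Ttr, Serpina10, Cd14 and Cebpd were not matched. The windows were searched on both strands for the spaced STAT3 palindrome TTCNNNGAA, the IL-6 response element core CTGGGAA, the C/EBP core TTGCNNAA and the NF-kB motif. Below are Saa1 and Saa2, neighbours with the largest ratios of OC.1 to the mean of OC.0 and OC.2, Saa3 and Lcn2, which differed most between CO.1 and CO.0, Steap4, the gene with the smallest adjusted p in the comparisons of offspring diet that gave calls, and Socs3, the feedback inhibitor. Capitals mark each match, and no base of these windows lay in matches to more than 1 motif.
Saa1 (chr7:46742931-46743230, minus strand): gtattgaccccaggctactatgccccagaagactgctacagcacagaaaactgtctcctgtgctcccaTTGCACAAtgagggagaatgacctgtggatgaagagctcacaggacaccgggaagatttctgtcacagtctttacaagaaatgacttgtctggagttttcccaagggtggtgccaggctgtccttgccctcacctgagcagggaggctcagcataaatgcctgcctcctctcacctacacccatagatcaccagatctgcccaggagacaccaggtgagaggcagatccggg
Saa2 (chr7:46751583-46751882, plus strand): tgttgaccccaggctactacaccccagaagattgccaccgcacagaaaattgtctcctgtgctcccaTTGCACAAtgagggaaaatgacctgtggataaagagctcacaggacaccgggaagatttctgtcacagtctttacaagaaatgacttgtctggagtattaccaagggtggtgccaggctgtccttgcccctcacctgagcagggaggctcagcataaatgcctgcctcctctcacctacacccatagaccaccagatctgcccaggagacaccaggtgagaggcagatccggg
Saa3 (chr7:46715627-46715926, minus strand): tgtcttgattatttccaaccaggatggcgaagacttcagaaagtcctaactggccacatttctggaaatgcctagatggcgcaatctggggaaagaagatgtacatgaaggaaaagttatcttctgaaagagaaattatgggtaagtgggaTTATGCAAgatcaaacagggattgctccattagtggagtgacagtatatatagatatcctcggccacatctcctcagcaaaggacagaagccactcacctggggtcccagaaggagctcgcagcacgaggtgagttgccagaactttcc
Lcn2 (chr2:32387690-32387989, minus strand): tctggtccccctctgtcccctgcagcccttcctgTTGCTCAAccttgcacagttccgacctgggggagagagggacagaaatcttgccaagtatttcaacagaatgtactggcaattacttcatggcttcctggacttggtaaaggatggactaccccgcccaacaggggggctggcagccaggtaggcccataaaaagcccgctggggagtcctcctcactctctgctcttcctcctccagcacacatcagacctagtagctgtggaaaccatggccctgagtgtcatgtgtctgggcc
Steap4 (chr5:7960222-7960521, plus strand): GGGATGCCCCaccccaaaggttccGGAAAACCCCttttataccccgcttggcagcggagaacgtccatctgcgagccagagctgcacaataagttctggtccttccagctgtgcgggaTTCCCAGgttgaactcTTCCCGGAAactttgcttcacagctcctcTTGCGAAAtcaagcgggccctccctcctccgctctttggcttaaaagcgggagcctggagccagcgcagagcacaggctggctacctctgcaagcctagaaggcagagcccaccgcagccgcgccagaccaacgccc
Socs3 (chr11:117969317-117969616, minus strand): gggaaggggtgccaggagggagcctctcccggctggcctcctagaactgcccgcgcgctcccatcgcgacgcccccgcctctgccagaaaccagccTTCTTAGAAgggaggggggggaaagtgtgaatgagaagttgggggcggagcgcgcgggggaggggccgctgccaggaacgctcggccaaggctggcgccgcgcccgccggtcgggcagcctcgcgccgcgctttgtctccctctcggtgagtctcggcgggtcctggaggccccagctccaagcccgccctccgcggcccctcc

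The C/EBP core was present in the windows of 13 of the 26 genes, against 10.8% of 32851 windows of all genes. All 4 Saa genes held it, at -182 in Saa1 and -183 in Saa2, counted from the start site. The STAT3 palindrome was present for 6 of the 26 (Fga, Fgb, Itih4, Apcs, Steap4 and Socs3), against 8.3% of all windows. The IL-6 response element core was present for 6 (Fgb, Fgg, Apcs, Il1rn, Lrg1 and Steap4), against 11.1%, and the NF-kB motif for Il1r1 and Steap4, against 4.5%. Steap4 was thus matched by all 4 motifs, with the palindrome at -116 and the C/EBP core at -87. A gene with several start sites had several windows, and a match is a description of letters, not of binding.

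The secreted genes were highest in 1 library fed the obesogenic diet after weaning, CO.1, and in 1 library on control diet, OC.1. CO.1 was the highest of the 11 libraries for 27 of the 35 genes, against 12.6% of all genes, and OC.1 for 5, against 9.04%. Both stood above the other 9 libraries for 22 genes, against 2.49% of all genes. Of these 22, 21 were among the 26 secreted genes, and Il1r1 was the other. The secreted genes together took 10.6% of all values in CO.1 (95% Wilson interval 10.5% to 10.6%), 7.51% in OC.1 (7.49% to 7.53%) and 3.07% to 4.49% in the other 9 libraries, with intervals that cover counting error only. CO.1 was at least 2 times CO.0 for 21 of the 35 genes (19 secreted), against 4.19% of all genes, and OC.1 was at least 2 times the mean of OC.0 and OC.2 for 18 (16 secreted), against 1.65%. In CO.1 the secreted genes had a median ratio to CO.0 of 2.80, the receptor and signalling genes 1.49, and all genes 1.01. In OC.1 the medians of the ratio to the mean of OC.0 and OC.2 were 3.31, 1.40 and 1.01 for the same sets. CO.1 and OC.1 were singled out because they stood apart in these genes, so these counts and ratios describe them and test nothing.

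**Figure D1:**
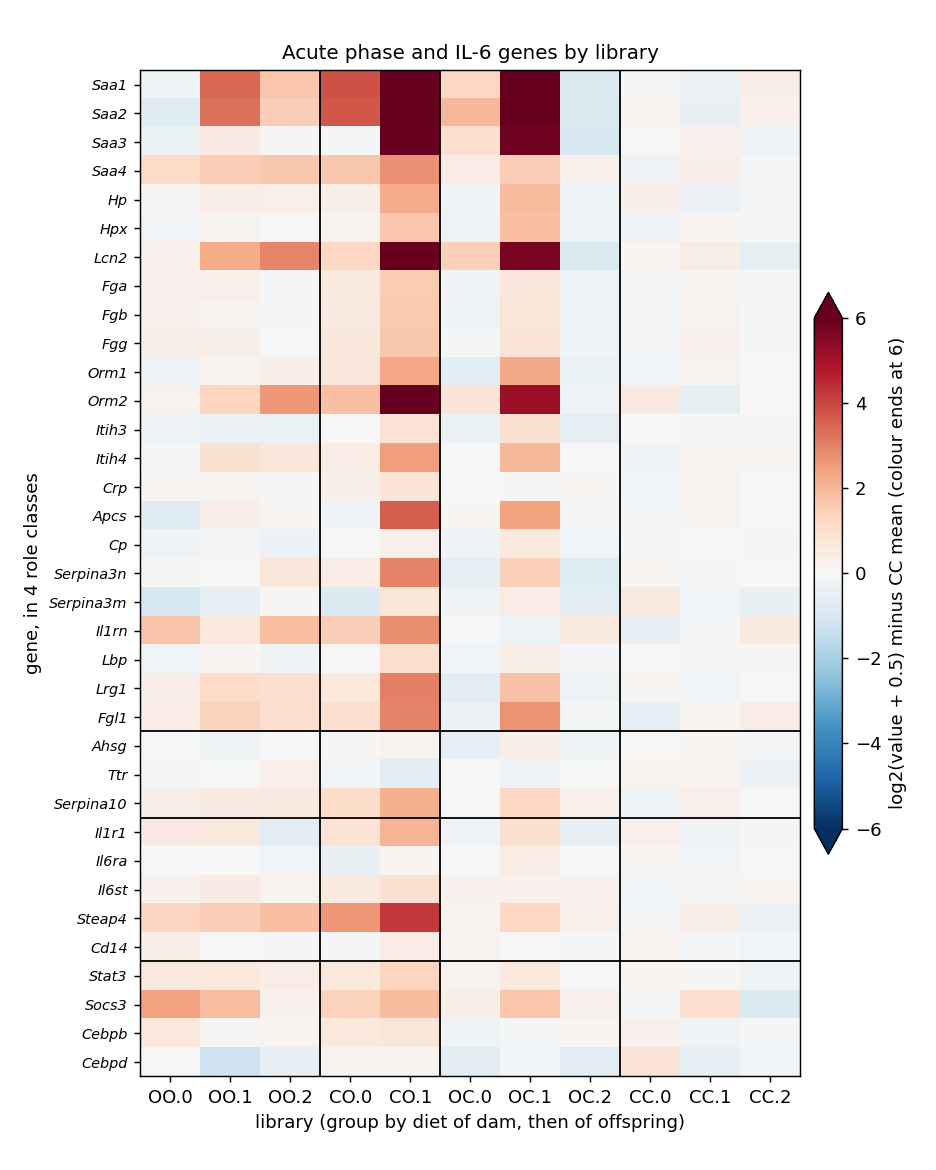
Heat map of the 35 genes (vertical axis, in blocks for the secreted proteins listed as rising, other secreted proteins, receptors and surface proteins, and signalling factors) in the 11 libraries (horizontal axis, by group). Colour is log2(value + 0.5) minus the mean of the CC libraries and saturates at 6 in either direction; the darkest cells are in CO.1 and OC.1, and are Saa1, Saa2, Saa3, Lcn2 and Orm2.

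Saa1, an acute phase serum amyloid, had values of 22.5, 298 and 86.6 in OO, 389 and 5045 in CO, 65.2, 3415 and 14.4 in OC, and 25.7, 21.3 and 36.1 in CC. Saa2, its close relative, had 11.8, 208 and 58.3 in OO, 282 and 7410 in CO, 84.7, 4025 and 11.2 in OC, and 22.8, 14.96 and 25.6 in CC. CO.1 and OC.1 were far above all others for both genes, CO.0 and OO.1 came next, and the lowest value of each gene was in an OC library, OC.2. Saa3, which is made by macrophages and other tissues as well as liver, had 2.84, 5.53 and 4.08 in OO, 3.67 and 279 in CO, 8.34, 247 and 1.76 in OC, and 3.8, 4.67 and 3.18 in CC. For Saa3 the 9 other libraries lay between 1.76 and 8.34, and CO.0 was within the range of CC. Saa1 shared 31.1% of its 50-base words with Saa2 in the GENCODE M21 transcripts, and how the counter divided reads of the pair was not stated, so the split between Saa1 and Saa2 is uncertain. Saa3 and Saa4 shared 3.57% and 0.98% of theirs with any gene.

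Lcn2, lipocalin 2, a protein that binds bacterial siderophores, had 5.14, 21.0 and 34.8 in OO, 10.5 and 894 in CO, 11.7, 238 and 2.06 in OC, and 4.44, 5.8 and 2.63 in CC. CO.1 was 85.2 times CO.0, the largest such ratio of the 35 genes, and OC.1 was 34.5 times the mean of OC.0 and OC.2. OO.1 and OO.2 lay above every CC library and OO.0 did not. Orm2, an orosomucoid that carries drugs and lipids, had 3.71, 8.57 and 21.6 in OO, 12.5 and 259 in CO, 5.76, 127 and 2.64 in OC, and 4.76, 2.06 and 3.18 in CC. Its groups overlapped in the same way, with CO.1 and OC.1 on top and OO.2 next. Orm1 had a narrower spread, 258, 364 and 398 in OO, 504 and 1559 in CO, 199, 1516 and 237 in OC, and 283, 354 and 314 in CC, and shared 20.4% of its 50-base words with Orm2, so that both are uncertain.

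**Figure D2:**
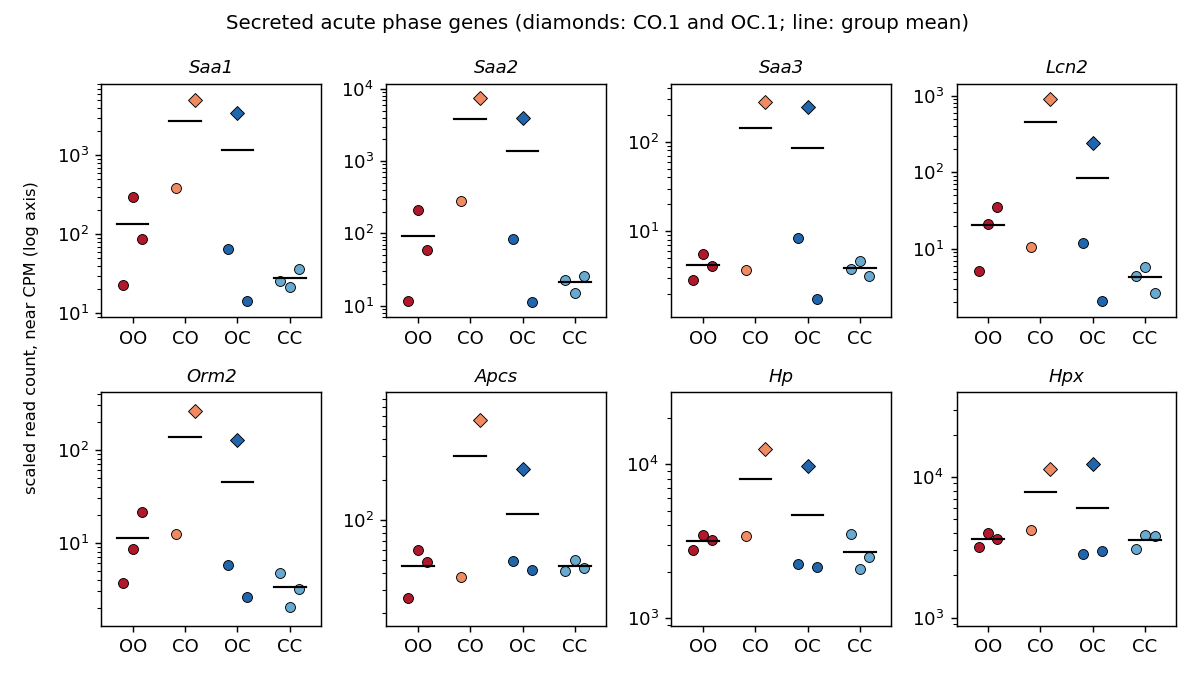
Values of 8 secreted acute phase genes in each library (vertical log axis, scaled read count near CPM) by group (horizontal axis, OO, CO, OC, CC), with group means as lines and CO.1 and OC.1 as diamonds. In each panel both diamonds lie above the other 9 libraries, as for Saa1 with 5045 in CO.1 and 3415 in OC.1 against 14.4 to 389.

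The pentraxin Apcs (serum amyloid P) had 25.9, 60.0 and 48.9 in OO, 37.7 and 561 in CO, 48.9, 242 and 42.6 in OC, and 41.5, 49.9 and 43.8 in CC. CO.1 and OC.1 were the 2 highest, CO.0 lay below every CC library, and the other 9 libraries ran from 25.9 to 60.0. Crp, C-reactive protein, had 245, 252 and 216 in OO, 294 and 402 in CO, 229, 239 and 245 in OC, and 201, 258 and 226 in CC. Both CO libraries lay above every CC library for Crp, whereas OC.1 lay within the range of the other OC libraries, with a ratio of 1.01. Crp was thus highest in CO.1 without being high in OC.1.

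Haptoglobin (Hp), which binds free haemoglobin, had 2779, 3464 and 3233 in OO, 3395 and 12519 in CO, 2235, 9698 and 2146 in OC, and 3497, 2089 and 2506 in CC. Hemopexin (Hpx), which binds haem, had 3169, 4003 and 3635 in OO, 4190.3 and 11373 in CO, 2848, 12264 and 2975 in OC, and 3088, 3854 and 3801 in CC. CO.1 and OC.1 stood clear of the other 9 libraries for both, at 3.69 and 2.71 times CO.0 in CO.1, and OC.1 was the highest library for Hpx. Ceruloplasmin (Cp), the copper-carrying ferroxidase, spread less: it was highest in OC.1 (2685) and CO.1 (2277) and 1438 to 1887 in the other 9.

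The fibrinogen chains Fga, Fgb and Fgg, the clotting substrate, had a like pattern. Fga had 5363, 5547 and 4099.9 in OO, 6666 and 12936 in CO, 3875, 7077 and 3649 in OC, and 4248, 4971 and 4284 in CC. Fgb and Fgg followed the same order of libraries at the top, with 12713 and 8683 in CO.1, 7043 and 4928 in OC.1, and 6143 and 4646 in CO.0. Both CO libraries lay above every CC and every OO library for the 3 chains, and CO.1 was 1.94, 2.07 and 1.87 times CO.0. Fgl1, a fibrinogen-like protein secreted by the liver, ran wider, with 1914 in CO.1 and 1579 in OC.1 against 166 to 625 in the other 9 libraries.

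Itih4 and Itih3, heavy chains of the inter-alpha trypsin inhibitor family, differed in size. Itih4 was 7945 in CO.1 and 5455 in OC.1 against 1186 to 2687 in the other 9 libraries, and Itih3 was 2596 and 2689 against 969 to 1492. The protease inhibitor Serpina3n had 362, 346 and 557 in OO, 475 and 2675 in CO, 227, 945 and 210.2 in OC, and 378, 323 and 336 in CC. CO.1 was 5.64 times CO.0 and OC.1 4.32 times the mean of the other OC libraries, and OC.0 and OC.2 were the lowest 2 of the 11. Serpina3m ran from 143 to 491 with its highest value in CO.1 and its second in CC.0 (450.02), and it shared 19.1% of its 50-base words with other genes, mainly Serpina3k, so its values are uncertain. Lrg1, a leucine-rich glycoprotein of plasma, had 189, 302 and 276 in OO, 222 and 1146 in CO, 90.8, 474 and 117 in OC, and 159.8, 127 and 139 in CC. Every OO library lay above every CC library for Lrg1, and above OC.0 and OC.2 but below OC.1. Lbp, which presents lipopolysaccharide to Cd14, was 265 in CO.1 and 161 in OC.1 and 108 to 137 in the other 9 libraries.

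The 3 other secreted genes did not share 1 pattern. Ahsg (fetuin A), which falls in the acute phase, had 6839.8, 5570.1 and 6850.2 in OO, 7217 and 7798 in CO, 4643, 8675 and 5747 in OC, and 6594, 7366 and 6414 in CC. OC.1 and CO.1 were the 2 highest libraries for Ahsg too, although CO.1 was 1.08 times CO.0. Transthyretin (Ttr), the thyroid hormone carrier that also falls in the acute phase, had 4021, 4264 and 5249 in OO, 3788 and 2739 in CO, 4368, 3706 and 4225 in OC, and 4933, 4854 and 3349 in CC. CO.1 was the lowest of the 11 for Ttr and OO.2 the highest. Serpina10, an inhibitor of coagulation factors, followed the rising genes, with 161, 177 and 186 in OO, 274 and 555 in CO, 124, 304 and 159 in OC, and 105, 158 and 124 in CC. Both CO libraries lay above every OO and every CC library for Serpina10.

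**Figure D3:**
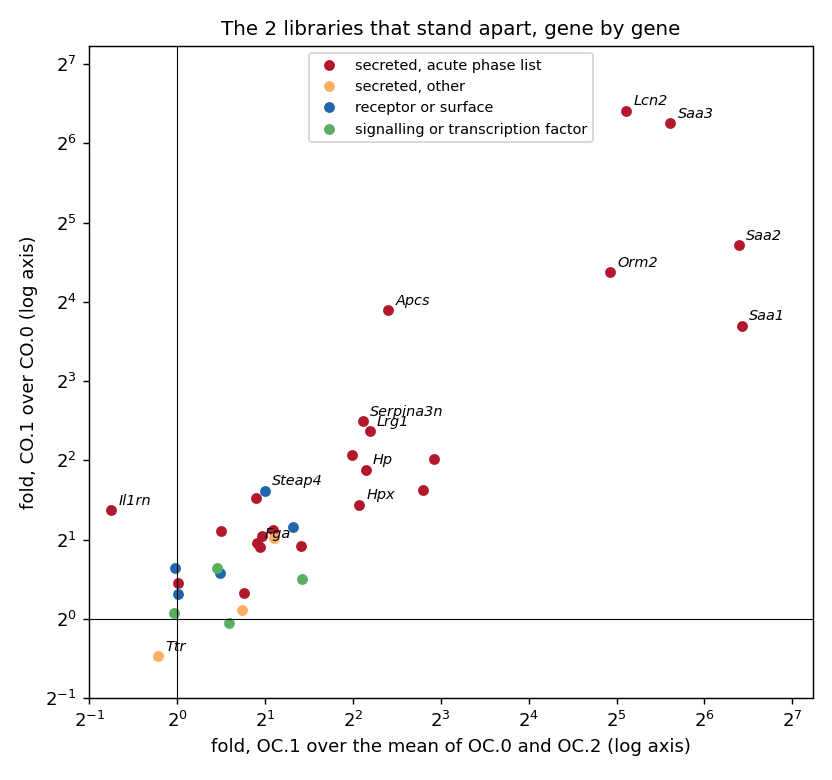
Ratio of CO.1 to CO.0 (vertical log axis) against the ratio of OC.1 to the mean of OC.0 and OC.2 (horizontal log axis), 1 point per gene, coloured by role. The genes with the largest ratios in either library were Saa1, Saa2, Saa3, Lcn2 and Orm2, Steap4 stood at 3.07 and 2.0, and Il1rn was above 1 in CO.1 (2.58) and below 1 in OC.1 (0.595).

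Among receptors and signalling genes, the highest library was 24.2 times the lowest for Steap4 and 10.8 times for Socs3, and 1.58 to 6.63 times for the other 7. Il6ra, the IL-6 binding receptor, ran from 28.8 in CO.0 to 55.4 in OC.1, and all 3 OO libraries (39.3, 39.0 and 35.8) lay below all 3 OC libraries (39.7, 55.4 and 39.5), with OO.0 and OC.2 almost equal. Il1r1, the interleukin 1 receptor, had 90.5, 95.4 and 38.7 in OO, 115 and 257 in CO, 53.0, 121 and 43.9 in OC, and 76.6, 53.1 and 60.1 in CC, with CO.1 and OC.1 highest. Cd14, the lipopolysaccharide co-receptor, stayed between 2.63 and 4.15 in all 11 libraries. Cebpd, an early transcription factor of the response, ran from 2.49 in OO.1 to 11.6 in CC.0 and was 7.67 and 7.42 in CO. Socs3 had 44.8, 30.4 and 9.8 in OO, 22.0 and 31.2 in CO, 10.5, 26.8 and 9.54 in OC, and 7.29, 16.6 and 4.15 in CC. OO.0 was highest and OO.2 was near OC.0 and OC.2, so that the OO libraries spanned most of the range, and both CO libraries lay above every CC library.

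In CO against CC, the offspring diet effect in offspring of control dams, 6 of the 35 genes were higher and 0 lower by limma with Benjamini-Hochberg adjustment over all genes. Of all genes, 1.79% passed in either direction and 1.01% were higher. Among the 6 were 3 secreted genes (Saa4, Serpina10 and Il1rn) and 3 receptor and signalling genes (Steap4, Il6st and Stat3). The median log2 difference was 1.47 over the 26 secreted genes, 0.74 over the 9 receptor and signalling genes and -0.01 over all genes. Without CO.1, leaving 1 CO library that is assumed to vary like the others, the secreted median was 0.50 and the receptor and signalling median 0.64.

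Steap4, a metalloreductase of the cell surface known to be induced by inflammatory cytokines, rose most among the 6. Its values were 145, 164 and 209.8 in OO, 363 and 1116 in CO, 67.5, 140.1 and 72.5 in OC, and 56.3, 78.4 and 46.2 in CC. Both CO libraries lay above all others, every OO library lay above every OC and every CC library, and OC.1 was the highest of the control-diet offspring. The means were 739.9 ± 532 in CO (SD, n = 2) and 60.3 ± 16.5 in CC (SD, n = 3), a log2 difference of 3.43 with SE 0.43 (adjusted p = 0.00653, limma). This call held under all 21 alternatives, with log2 differences of 2.62 to 4.23 and adjusted p of 3.74e-15 to 0.0434.

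Saa4, the constitutive serum amyloid of lipoproteins, had 164, 201 and 224 in OO, 222 and 480.5 in CO, 97.5, 199 and 90.3 in OC, and 57.5, 93.9 and 69.8 in CC. All OO and CO libraries lay above every CC library, and OC.1 lay among the OO libraries. The log2 difference of CO against CC was 2.17 with SE 0.37 (limma adjusted p = 0.019). It was 1.61 without CO.1, where the call ended, as it did without CC.0 or CC.2, and the adjusted p over the alternatives reached 0.149. Il1rn, the secreted antagonist of the interleukin 1 receptor, had 7.51, 3.32 and 8.33 in OO, 6.33 and 16.4 in CO, 1.88, 1.52 and 3.23 in OC, and 1.27, 1.87 and 3.04 in CC. Every OO and every CO library lay above every OC and CC library for Il1rn, and OC.1 was low, at 0.595 times the mean of OC.0 and OC.2. OO.1 (3.32) and OC.2 (3.23) were almost equal, where 1 read was worth 0.276 in OO.1. Its log2 difference in CO against CC was 2.13 with SE 0.47 (limma adjusted p = 0.0464), and the call held under 9 of 21 alternatives.

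Stat3, the transcription factor that IL-6 activates, had 151, 153 and 141 in OO, 159 and 248 in CO, 117, 151 and 103 in OC, and 113, 105 and 87.5 in CC. The CO and OO libraries lay above every CC library, while OC.1 was close to OO. The log2 difference of CO against CC was 0.96 with SE 0.20 (limma adjusted p = 0.0414), with 11 of 21 alternatives keeping the call. Il6st, the gp130 subunit, had 215, 259 and 213 in OO, 273 and 341 in CO, 217, 218 and 217 in OC, and 165, 189 and 196 in CC. Both CO libraries lay above all 9 others, and the 3 OC libraries differed by less than 1 from each other. The log2 difference of CO against CC was 0.74 with SE 0.14 (limma adjusted p = 0.0303), kept by 15 of 21 alternatives. Serpina10 rose by 1.61 with SE 0.35 (limma adjusted p = 0.0441), kept by 11 of 21.

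**Figure D4:**
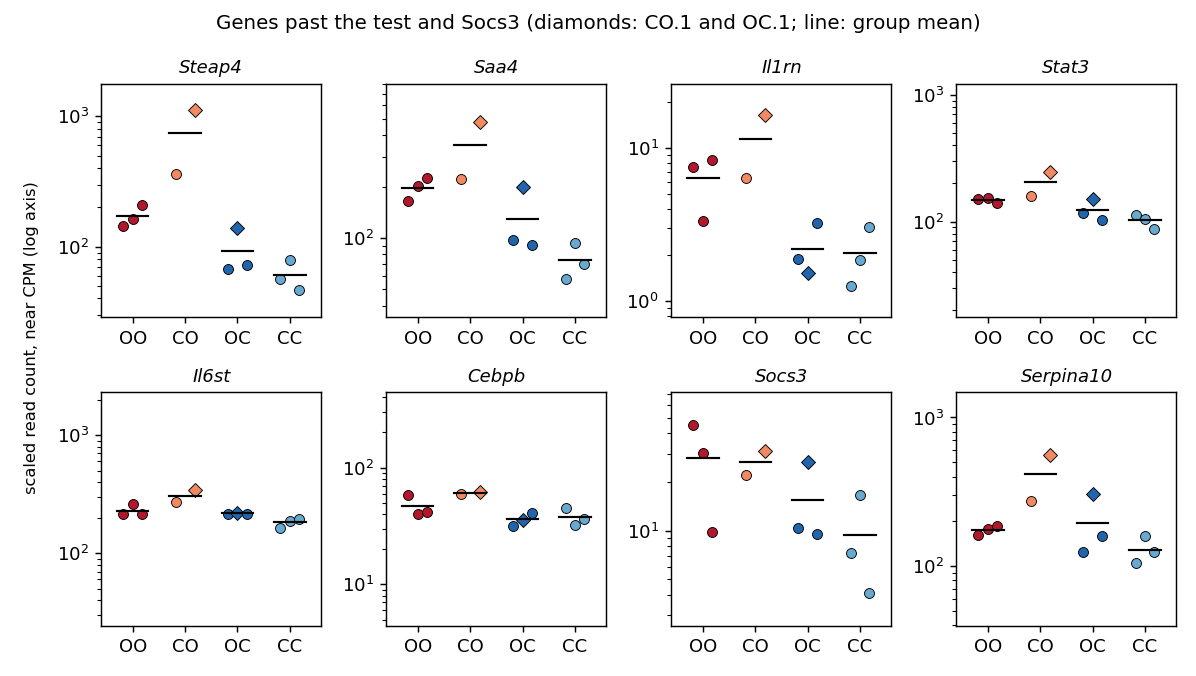
Values of the genes that passed the test in CO against CC or in the average over dams, and of Socs3, in each library (vertical log axis, scaled read count near CPM) by group (horizontal axis), with group means as lines and CO.1 and OC.1 as diamonds. Steap4 is highest in CO (363 and 1116), next in OO (145 to 209.8) and lowest in OC and CC (46.2 to 140.05).

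Leaving out CO.1, CC.0 or CC.2 left Steap4 as the only gene called in CO against CC, and leaving out OO.0 left 3. The call of Il1rn also ended without CC.1 or any OC library (log2 difference 1.48 to 2.78 over the libraries left out), that of Serpina10 without OC.2 or any OO library (1.10 to 2.12), and that of Stat3 without CC.1, OC.0 or OO.1 (0.64 to 1.29). Fitted to CO and CC alone, limma called Steap4, Saa4 and Saa1. DESeq2 on recovered reads called 10, adding Fga, Fgb, Fgg and Crp to the 6, where it called 3.94% of all genes with an adjusted p. In every comparison DESeq2 gave no p for 6 of the 35 genes, Saa1, Saa2, Saa3, Lcn2, Orm1 and Orm2, as it does by default for genes with an outlying count. At an unadjusted p under 0.05 limma had 21 of 35 genes, against 16.8% of all genes. Both CO libraries lay above all CC libraries for 23 genes, against 17% of all genes. CO.0 on its own lay above every CC library for the same number of genes, 23, against 29.4% of all genes.

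In OO against OC, the same diet contrast in offspring of obesogenic dams, limma called 0 of the 35 genes, where 0.165% of all genes passed. At an unadjusted p under 0.05 there were 2 (Il1rn and Steap4), against 8.01% of all genes, and edgeR and DESeq2 called 0 each. Steap4 and Il1rn were the 2 genes whose OO libraries all lay above the OC libraries (6.6% of all genes). Each rested on a close pair, OO.0 (144.6) and OC.1 (140.1) for Steap4, and OO.1 and OC.2 for Il1rn. Il6ra was the 1 gene with the opposite order (6.14%). The log2 difference was 0.95 with SE 0.38 for Steap4 (limma adjusted p = 0.5535) and 1.31 with SE 0.42 for Il1rn (limma adjusted p = 0.41). The secreted median was -0.12, and without OC.1 it was 0.39, so that its sign rested on that library. Without OC.1 and CO.1 the log2 difference was 1.28 with SE 0.20 for Lrg1 and 1.28 with SE 0.22 for Steap4. These 2 libraries were singled out because they stood apart in these genes, so a fit without them describes and tests nothing.

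Averaged over both kinds of dam, 6 genes were higher with the obesogenic offspring diet and 0 lower by limma, against 3.96% of all genes in either direction and 2.24% higher. Steap4 rose by 2.19 on the log2 scale with SE 0.29 (limma adjusted p = 0.00244), and Saa4 by 1.43 with SE 0.25 (limma adjusted p = 0.0104). Il1rn rose by 1.72 with SE 0.32 (limma adjusted p = 0.0128) and Stat3 by 0.62 with SE 0.14 (limma adjusted p = 0.0282). Smaller rises were those of Il6st (0.41, SE 0.09, limma adjusted p = 0.036) and Cebpb (0.52, SE 0.13, limma adjusted p = 0.0433). Cebpb, a transcription factor that cooperates with STAT3, had 58.7, 39.8 and 41.7 in OO, 59.0 and 62.0 in CO, 31.5, 35.4 and 41.1 in OC, and 44.7, 32.4 and 36.1 in CC. CO.0, CO.1 and OO.0 were the 3 highest for Cebpb, and OO.1 and OO.2 overlapped the control-diet libraries. At an unadjusted p under 0.05 limma had 13 genes, against 19.4% of all genes. The secreted median was 0.58, the receptor and signalling median 0.52 and that of all genes 0.00. Steap4 and Il1rn were the 2 genes with every CO library above every CC library and every OO library above every OC library, against 2.95% of all genes. For Il1rn this rested on OO.1 and OC.2, which were almost equal, and for Steap4 OO.0 (144.6) and OC.1 (140.1) were close.

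**Figure D5:**
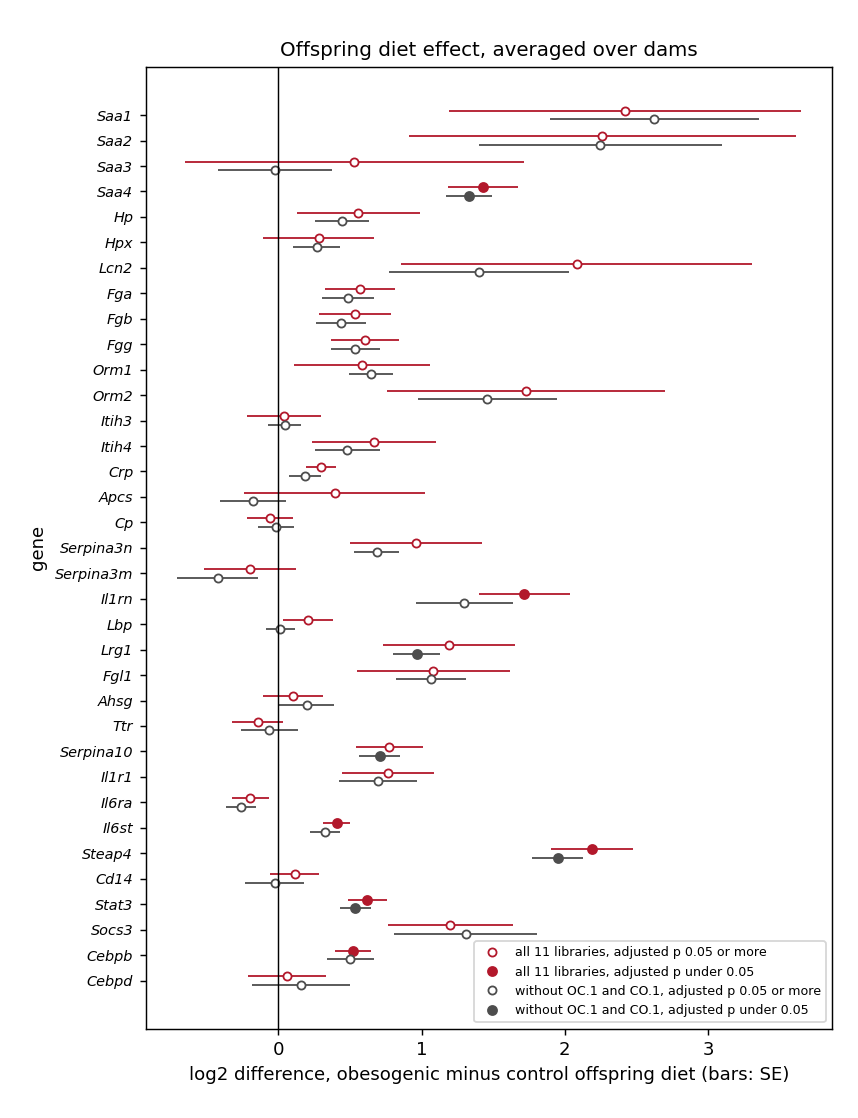
Log2 difference of obesogenic minus control offspring diet, averaged over dams (horizontal axis, bars are SE), for each of the 35 genes (vertical axis), in all 11 libraries (red) and without OC.1 and CO.1 (grey), with filled points for limma adjusted p under 0.05. Steap4 and Saa4 lie at 2.19 and 1.43 with all libraries and at 1.95 and 1.33 without the pair, and the SE of Saa1 is 0.73 without the pair. The pair was singled out because it stood apart in these genes, so the grey points, filled or open, describe and test nothing.

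Without OC.1 and CO.1 the log2 differences in the average over dams were 1.95 for Steap4, 1.33 for Saa4, 0.54 for Stat3 and 0.71 for Serpina10. In that fit Lrg1 rose by 0.96 with SE 0.17 and Saa1 had a log2 difference of 2.62 with SE 0.73. These 2 libraries were singled out because they stood apart in these genes, and 1 CO library was left, so this fit describes and tests nothing. The calls of Steap4 held under all 20 alternatives and those of Saa4 under 19 of 20. Without CO.1 alone the genes called were Steap4 and Saa4, and without CC.2, OC.0 or OO.0 they were Steap4, Saa4 and Il1rn. With single libraries left out, the call of Il6st held without CO.0 or OO.2 and ended without any of the other 9 (0.33 to 0.49), that of Stat3 also ended without OC.2 or OO.1 (0.46 to 0.78), and that of Cebpb without CC.1, CO.0 or OC.1 (0.44 to 0.59). DESeq2 called 7 genes in the average, adding Serpina10 to the 6, and edgeR called 6. Leaving out OC.1 added calls of Saa1, Lrg1, Fgl1 and Serpina10 (limma adjusted p = 0.0377, 0.0407, 0.037 and 0.0225). OC.1 was singled out because it stood apart in these genes, so those added calls test nothing.

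The maternal diet contrasts gave no call among the 35 genes by limma. In OC against CC, 0 genes passed, as 0% of all genes did, with 1 (Saa4) at an unadjusted p under 0.05 against 5.26% of all genes. Only Il6st had all OC libraries above all CC libraries, against 5.32% of all genes. The secreted median was 0.34, and -0.16 without OC.1. In OO against CO, 0 genes passed by limma (0.0414% of all genes), with 11 at an unadjusted p under 0.05 against 5.92% of all genes. The OO libraries lay below both CO libraries for 18 genes, against 9.48% of all genes, and above them for Ttr, against 10.5%. The secreted median in OO against CO was -0.96, and -0.20 without CO.1. Steap4 had the smallest p there, with a log2 difference of -1.90 and SE 0.43 (limma adjusted p = 0.705), and DESeq2 called it. The average maternal effect gave 0 calls by limma (0.0331% of all genes), with 3 genes (Crp, Steap4 and Cebpd) at an unadjusted p under 0.05 against 6.13%. edgeR called 0 in all 3 of these comparisons, and DESeq2 called 0 apart from Steap4 in OO against CO, with 10 of the 35 genes left without an adjusted p in the average maternal effect.

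The interaction of maternal and offspring diet, which tests whether the offspring diet effect differed between dams, had 0 of the 35 genes past the threshold by limma (0.0331% of all genes), 0 by edgeR and 1 (Steap4) by DESeq2. At an unadjusted p under 0.05 limma had 10 genes, against 4.56% of all genes. The fitted interaction was below 0 for 34 of the 35 genes and above 0 for 1, where 51.4% of all genes were above 0, with -2.48 and SE 0.57 for Steap4 (limma adjusted p = 0.936). High values in CO.1 and in OC.1 both lower this contrast, so the count of signs leans on these libraries. The secreted median of the interaction was -1.41, and 0.07 without OC.1 and CO.1.

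Other genes of the pathway were followed in lists of their own. Among other IL-6 and JAK-STAT genes, of which 31 were in the table, log2 differences are given for those past the test that are reported here. The oncostatin M receptor Osmr rose by 1.30 in CO against CC (SE 0.27, limma adjusted p = 0.0386) and Stat2 by 0.66 (SE 0.14, limma adjusted p = 0.0422). Osmr (0.74), Stat2 (0.46), Jak3 (1.02) and Bcl3 (0.91) were higher in the average over dams by limma, and the interleukin 22 receptor subunit Il22ra1 (-1.04) was lower. The OO and OC libraries overlapped for Osmr (8.38 to 12.2 and 5.87 to 10.6) and for Stat2 (50.8 to 59.2 and 40.4 to 54.4). They did not overlap for Jak3, Bcl3 and Il22ra1, where 6.6% of all genes had every OO library above every OC library and 6.14% below. Of 27 other interleukin 1, Toll-like receptor and NF-kB genes, limma called 1 in the average, the tumour necrosis factor receptor Tnfrsf1a, which was higher, where 3.96% of all genes were called.

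Among 22 other liver acute phase genes, 0 were higher and 1 lower in CO against CC by limma, where 1.79% of all genes were called. Hamp, the iron hormone hepcidin, which IL-6 is known to induce through STAT3, was 31.2, 106.5 and 98.7 in OO, 58.7 and 62.9 in CO, 289, 306 and 279 in OC, and 416, 466 and 455 in CC. All OO and CO libraries lay below all OC and CC libraries, with a log2 difference of -2.86 (SE 0.39, limma adjusted p = 0.00917) in CO against CC and -2.07 (SE 0.35, limma adjusted p = 0.0437) in OO against OC. CO.1 and OC.1 lay close to the other libraries of their groups for Hamp. In OO against OC 3 of the 22 were lower, Hamp and the antitrypsin genes Serpina1b and Serpina1d, which were listed at 0 in all 3 OO libraries and belong to a near-identical family whose read assignment is uncertain, where 0.165% of all genes were called. Those 2 antitrypsin genes were also lower in OO against CO, where 0.0414% of all genes were called. In the average over dams, with 3.96% of all genes called, Vnn1 and the chemokine Cxcl1 were higher, and Hamp, Serpina1b and Serpina1d lower. Of 16 other genes listed for liver proteins known to fall or stay in the acute phase, 1 was lower in the average, Tat, an aminotransferase inside the cell, and 0 were higher, against the same 3.96% of all genes.

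Marker genes of other cell types were summed beside these results. Neutrophil markers (4 of 13 in the table) summed to 10.95 to 16.04 in OO, 18.7 to 43.7 in CO, 10.2 to 14.8 in OC and 7.325 to 11.7 in CC. The 43.7 was in CO.1 and OC.1 had 10.2, and both CO libraries lay above every other library. Adipocyte markers (2 of 6) summed to 11.4 to 25.65 in OO, 9.0 to 85.1 in CO, 10.5 to 25.4 in OC and 6.08 to 12.4 in CC, again with CO.1 highest. Exocrine pancreas markers (15 of 18) summed to 4348 in CO.1 and 26.8 in OC.1. In OC.1 the sums of these 3 lists lay within the range of the other libraries. Kupffer cell and macrophage markers (14 of 14) summed to 810 to 811 in OO, 744 to 771 in CO, 567 to 883 in OC, with 883 in OC.1, and 502 to 668 in CC. Apart from OC.1, every OO and CO library lay above every OC and CC library for that sum. Cd163 in that list went the other way, with 13.7 to 19.1 in OO, 23.5 and 28.4 in CO, 23.5 to 40.2 in OC and 27.3 to 46.3 in CC. In CO against CC limma called 1 of the 4 neutrophil and 1 of the 14 macrophage markers, where 1.79% of all genes were called. It also called 1 of each in the average over dams, where 3.96% of all genes were called. Sums of 3 other lists, not tested as sums, also lay mostly higher with the obesogenic offspring diet, as Steap4 and Il1rn did. Monocyte markers (3 of 5) summed to 16.8 to 19.35 in OO, 15 to 22.3 in CO, 8.51 to 12.6 in OC and 6.02 to 12.7 in CC, and limma called 1 of the 3 in the average over dams. Cholangiocyte markers (3 of 5) summed to 42.1 to 72.7 in OO, 49.7 to 59.2 in CO, 29.6 to 41.7 in OC and 25.7 to 41.5 in CC, with 0 called. In both lists every OO and CO library lay above every OC and CC library. For cholangiocytes the sums of OO.0 (42.08) and OC.1 (41.67) were almost equal. That sum was mostly Spp1, with 46.0 in CO.0 and 68.6 in OO.2. Sox9 was not higher, with 1.5 and 1.97 in CO, 1.96 to 2.21 in OO, 1.32 to 3.17 in OC and 1.9 to 3.59 in CC. Stellate cell markers (7 of 7) summed to 309 to 438 in OO, 307.5 to 333 in CO, 265 to 326 in OC, with 326 in OC.1, and 216 to 251 in CC, also with 0 called. The part of these transcripts in the values of CO.1, and of macrophages in those of OC.1, was not tested. Nor was the part of neutrophils, macrophages, monocytes, cholangiocytes and stellate cells in the differences with the offspring diet.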

How the data were processed

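Total RNA of 12-week livers was made into TruSeq libraries, per the labels' protocols. The deposited table holds a signal, which by its values is a gene count over a constant of the library. The file calls them CPM, but columns summed to 929699 to 1099404. Between 95.7% and 97.3% of values per library were whole multiples of 1 read (tolerance 0.01), for 6 of 11 columns with some low values that were not, and scaling matched edgeR's TMM. Bowtie 1.2.3 and the mm8 build are named in the submitters' processing notes; the sources used here do not name counter, annotation or strand setting.

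Columns were tied to groups by name, not to animals, and 0 columns were left unused. Litters are not given, so p-values measure the spread between these libraries. The design assumed CPM and 12 samples, and its test was kept for the signal and the 11 libraries found.

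Limma 3.58.1 (R 4.3.3) was fitted on log2(value + 0.5) with an intensity trend and 1 mean per group to all 11 libraries (7 residual and 4.66 prior degrees of freedom). Differences are on that scale, which understates changes of low genes. All 12086 genes reached 1 in at least 3 libraries. The 7 contrasts were adjusted by Benjamini-Hochberg over all genes, with a threshold of 0.05. The fit was tried on counts simulated with the same spread for every gene and no library standing apart. That setting does not cover genes such as Saa1 and Lcn2, for which CO.1 and OC.1 stood apart. Symbols were matched for 11965 genes. All members are named, with statistics for those past the threshold, and examples from other lists are those past the threshold. Some results of the other IL-6 and JAK-STAT list are not reported here. Members, lists, tests and alternatives were chosen with earlier results of these data known. Alternatives were edgeR 4.0.16 and DESeq2 1.42.0 on recovered reads, pseudocounts of 0.1 and 2, median-of-ratios scaling, a minimum of 5, no filter, each library left out, CO.1 left out with OC.1 or OC.0, and only the 2 groups compared. Promoters are from RefSeq (GRCm38.p6) and shared 50-base words from GENCODE M21 transcripts, neither being the alignment build.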

Additional observations from a re-analysis of the deposited data

Results flagged for a closer look

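Il6st, the gp130 subunit, had maternal diet differences of opposite sign by offspring diet, and neither passed the test (limma adjusted p = 0.833 in OO against CO and 0.923 in OC against CC). Every OO library (215, 259 and 213) lay below every CO library (273 and 341), and every OC library (217, 218 and 217) lay above every CC library (165, 189 and 196). The fitted interaction was -0.67 on the log2 scale, which limma did not call (unadjusted p = 0.00408, adjusted p = 0.936 by Benjamini-Hochberg).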

How the results depend on the processing

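Counts of genes called among the 35 depended on single libraries and on the tool. In CO against CC (6 called) the count was 10 with DESeq2, 1 to 8 with single libraries left out, 1 without OC.1 and CO.1, 1 without OC.0 and CO.1, and 3 with only the 2 groups fitted. In OO against OC (0 called) it was 1 without OC.1 and CO.1. In OO against CO (0 called) it was 1 with DESeq2 and 0 to 1 with single libraries left out. In the average over dams (6 called) it was 2 to 8 with single libraries left out and 1 without OC.0 and CO.1. The interaction (0 called) had 1 with DESeq2. Every other alternative kept each count within 1.5 times of its value, and no called difference changed direction. The depth of 3976158 reads in OO.1 limits low genes such as Il1rn, Cd14 and Cebpd most. No paired analysis was made, because the labels give no litter or other match between animals of different groups.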
